A study of Mus musculus with 6 samples.

Results

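The 10 genes Gpam, Gpat3, Gpat4, Agpat1, Agpat2, Agpat3, Lpin1, Lpin2, Dgat1 and Dgat2 encode the acyltransferases and phosphatases that build triglyceride from glycerol-3-phosphate. They were chosen by name and matched by Ensembl identifier to the deposited gene table. All 10 of the 10 genes were found among its 35122 genes, and all 10 passed the filter on low counts that left 13925 genes to test. RNA was sequenced from the adipocyte fraction of epididymal fat, the gonadal fat pad of male mice. The control mice (n = 3) carried the genotype PU.1 fl/fl, in which loxP sites flank a single exon of Spi1, the gene of the ETS family transcription factor PU.1. The aPU.1KO mice (n = 3) carried AdipoqCre_PU.1 fl/fl, so both groups shared the floxed allele and the aPU.1KO mice alone carried the Cre recombinase. All 6 mice were male C57BL/6 on standard chow, and their labels give an age of 10 to 11 months, whereas the text of the study describes older animals. Cre was driven by the adiponectin promoter, which is active in adipocytes, so other cell types that remained in the floating layer of the collagenase digest kept an intact allele. Each library came from 1 mouse, so p-values measure the spread between mice.

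Triglyceride is the storage lipid of the adipocyte. In the glycerol phosphate pathway, a glycerol-3-phosphate acyltransferase (GPAT) adds the first fatty acid, an acylglycerol phosphate acyltransferase (AGPAT) adds the next to give phosphatidate, a lipin removes the phosphate to give diacylglycerol, and a diacylglycerol acyltransferase (DGAT) adds the last. Phosphatidate and diacylglycerol are also the branch points at which the pathway leads to membrane phospholipids. White fat relies on this pathway after feeding, and loss of AGPAT2, or in mice of lipin 1, causes lipodystrophy.

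Promoter sequence was held for 7 of the 10 genes in the RefSeq table (GRCm38.p6), in 11 windows of 250 bases before a start site; Dgat1, Dgat2 and Gpat4 had no entry. Windows are shown for the lipins, whose ratio differed most between the groups among the 4 pairs of the same step that were compared, and for Gpam, the mitochondrial GPAT. Each runs 5′ to 3′ on the strand of the gene up to the base before the start site, and contains no exon of its own gene in the annotation. They are Lpin1 (chr12:16610967-16611216, minus strand), Lpin2 (chr17:71183282-71183531, plus strand) and Gpam (chr19:55127239-55127488, minus strand). Capitals mark the letters of the motifs searched on both strands, namely GAGGAA, the core of the PU-box bound by PU.1, CACGTG, an E-box bound by USF and SREBP factors among others, and AGGTCA, the hexamer of nuclear receptor elements.
Lpin1: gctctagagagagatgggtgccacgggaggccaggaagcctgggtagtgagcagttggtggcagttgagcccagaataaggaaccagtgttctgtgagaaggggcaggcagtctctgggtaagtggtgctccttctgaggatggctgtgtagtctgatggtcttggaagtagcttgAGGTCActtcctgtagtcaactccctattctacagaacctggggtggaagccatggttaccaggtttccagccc
Lpin2: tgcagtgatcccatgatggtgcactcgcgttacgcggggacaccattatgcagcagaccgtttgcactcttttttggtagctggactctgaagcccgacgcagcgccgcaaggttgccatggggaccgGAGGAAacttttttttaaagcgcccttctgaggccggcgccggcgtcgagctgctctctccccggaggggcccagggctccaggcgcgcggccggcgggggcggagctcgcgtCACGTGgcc
Gpam: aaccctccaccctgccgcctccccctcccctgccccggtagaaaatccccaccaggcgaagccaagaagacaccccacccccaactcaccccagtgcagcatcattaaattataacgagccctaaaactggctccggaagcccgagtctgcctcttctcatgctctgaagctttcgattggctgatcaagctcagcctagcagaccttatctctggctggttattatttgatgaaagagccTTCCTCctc

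The Lpin1 window held AGGTCA from 74 bases before the start site and none of the other motifs. That of Lpin2 held GAGGAA from 122 bases and CACGTG from 9 bases before the start site, and that of Gpam held GAGGAA on the opposite strand, read as its reverse complement, 9 bases before the start site. Lpin2 had 2 further windows, which held no motif searched, and Gpam had 1 more, which held GAGGAA and AGGTCA. Over the 11 windows, GAGGAA was present in 7, AGGTCA in 3 and CACGTG in 1. The windows with GAGGAA belonged to Gpat3, Agpat3, Agpat1, Lpin2 and Gpam, with more than 1 each for Agpat1 and Gpam. Windows of the same gene are not independent. The Gpat3 and Agpat3 windows held 99 and 159 bases of exons of their own gene. Of 32851 promoter windows of the same length, 23.3% held GAGGAA, 14.02% AGGTCA and 6.02% CACGTG. No motif searched contains another, and a match describes the sequence and is not a binding site.

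Libraries held between 20550252 and 69283842 counts, and the deepest was control mouse 1. Spi1 itself measured 24.3, 6.35 and 26.7 CPM (counts per 1000000 counts of the library, scaled by TMM factors) in control mice 1, 2 and 3 and 3.20, 1.22 and 4.17 CPM in aPU.1KO mice 1, 2 and 3. The groups did not overlap, and the log2 fold change was -2.75 ± 0.64 (SE), with an adjusted p of 0.0788. These counts are per gene and include the exons that were not floxed. PU.1 is also expressed in macrophages, which the paper names as a possible contaminant of this fraction. Loss of Spi1 from adipocytes and less macrophage RNA cannot be told apart in this value. Adipocyte markers were led by Fabp4, a fatty acid binding protein. They summed to between 30326 and 33306 CPM in controls and between 36522 and 43096 CPM in aPU.1KO mice. At an unadjusted p under 0.05 in edgeR, 7 of the 10 were higher and 1 was lower, against 11.9% and 13.7% of all tested genes. Their median log2 fold change was 0.36, and 9 of the 10 were above 0. Macrophage markers led by Lyz2, which encodes lysozyme, summed to 1507, 493 and 1452 CPM in control mice 1, 2 and 3 and to 339.7, 259 and 324 CPM in aPU.1KO mice. Of these 12 macrophage genes, 10 did not overlap between the groups and were lower in aPU.1KO, against 15.5% of all tested genes. In edgeR, 1 of the 12 passed an adjusted p of 0.05, against 0.237% of all tested genes. None of the 12 was at 0 in all libraries. In bulk RNA, fewer cells of a type and less RNA per cell cannot be told apart.

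**Figure D1:**
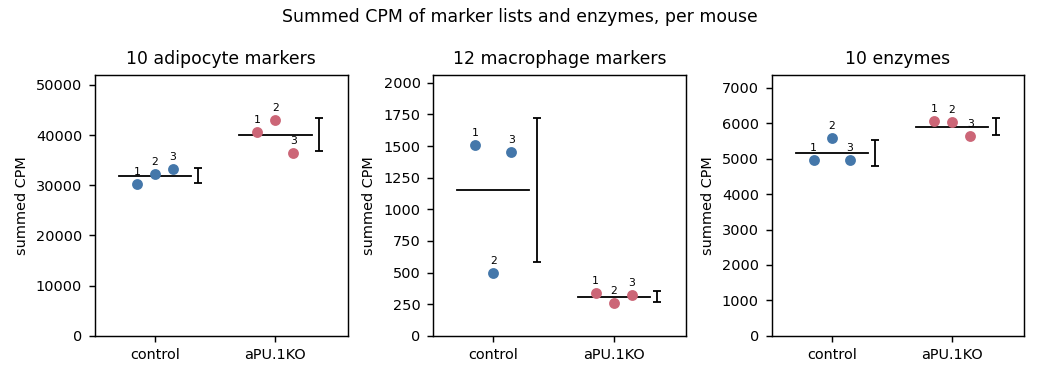
Summed CPM (vertical axis) of the 10 adipocyte markers, the 12 macrophage markers and the 10 triglyceride synthesis enzymes in each mouse (numbered points), with group means and SD. The macrophage sum of control mouse 2, 493 CPM, lay between the other controls and the aPU.1KO mice. On this scale the adipocyte and enzyme sums of all aPU.1KO mice lay above those of all controls. Summed per length as TPM, without TMM factors, the enzymes overlapped between the groups (means 5067 in controls and 4839 in aPU.1KO mice).

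To compare the enzymes with each other, levels were expressed per length as TPM, in which counts are divided by the length of the union of a gene's exons and then scaled to the same total in every library. In control mice Dgat2, which encodes a DGAT of the endoplasmic reticulum and of lipid droplets, was by far the highest at 3744 ± 175 TPM (SD, n = 3), at percentile 99.8 of the tested genes. Agpat2 followed at 531 ± 55.9 TPM, and Dgat2 exceeded it 7.06-fold. The next were Dgat1 at 222 ± 5.75 TPM, Lpin1 at 149 ± 15.1 TPM and Gpat3 at 144 ± 35.8 TPM. Lower levels per length were found for Gpat4 (77.5 ± 7.06 TPM), Gpam (67.6 ± 17.3 TPM), Agpat3 (66.0 ± 3.98 TPM) and Agpat1 (57.6 ± 1.76 TPM). Lpin2 was the lowest at 7.64 ± 0.127 TPM, at percentile 34.5, and Agpat1 exceeded it 7.53-fold. Neighbours in this order whose control ranges overlapped were Lpin1 and Gpat3, Gpat4 and Gpam, and Gpam and Agpat3, while the other neighbours were separated in all 3 controls. With the length of the longest coding transcript in place of the union of exons, Gpam moved from rank 7 to rank 9.

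**Figure D2:**
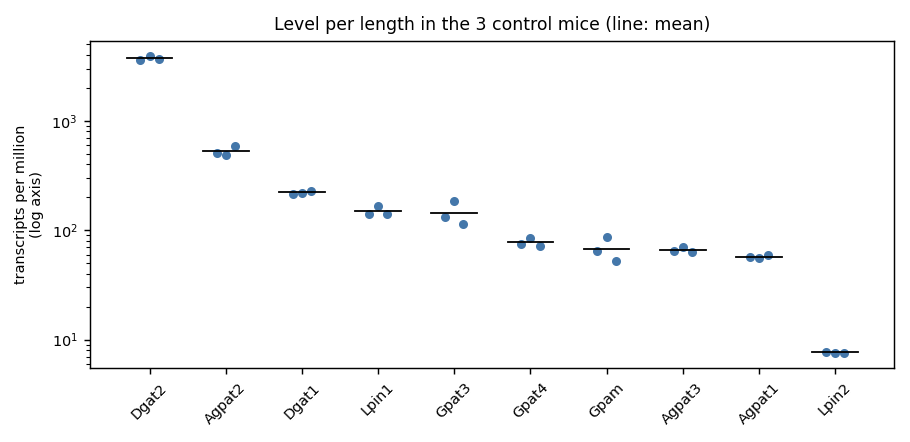
Level per length in TPM (vertical log axis) of each enzyme in the 3 control mice (points) with their mean (line), ordered by the mean. Dgat2 at 3744 TPM stands above the other 9 enzymes, and Lpin2 at 7.64 TPM below them.

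Members of the same step were unequal in RNA level. Per length, Dgat2 made up 94.4% ± 0.282 (SD, n = 3) of the sum of Dgat1 and Dgat2 in controls. Agpat2 made up 81.0% ± 1.79 of the 3 AGPAT genes, and 76.1% ± 2.05 when Agpat4, Agpat5 and Lclat1, which encode related acyltransferases, were counted too. Lpin1 made up 95.1% ± 0.497 of the sum of Lpin1 and Lpin2, and 90.3% ± 1.19 with Lpin3 included, whose level of 8.33 ± 0.858 TPM was near that of Lpin2. The 3 GPAT genes were more evenly divided, with 49.6% ± 1.93 from Gpat3, 27.2% ± 3.03 from Gpat4 and 23.2% ± 1.19 from Gpam.

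The comparison of aPU.1KO with control mice addresses which of these enzymes differ in RNA level when Spi1 is deleted in adipocytes. No enzyme passed an adjusted p of 0.05 in edgeR, where 0.237% of all tested genes did (33 genes, of which 25 were lower and 8 were higher in aPU.1KO). At an unadjusted p under 0.05, 6 of the 10 were higher in aPU.1KO (Gpam, Gpat3, Gpat4, Agpat3, Lpin1 and Dgat1) against 11.9% of all tested genes. At the same threshold, 1 of the 10 was lower (Lpin2) against 13.7%. The groups did not overlap and aPU.1KO was higher for 4 of the 10 (Gpat3, Gpat4, Lpin1 and Dgat1) against 16.7% of all tested genes, and lower for 1 of the 10 (Lpin2) against 15.5%. The median log2 fold change was 0.44 over the 10 enzymes, 0.36 over the 10 adipocyte markers and 0.01 over all tested genes. Of the 10 enzymes, 9 were above 0 (6 of the 10 when scaled to adipocyte markers), as were 52.0% of all genes with TMM scaling. DESeq2, the tool named by the study, called Gpat4 and Lpin1 higher (2 of 10, against 3.38% of 16934 genes with an adjusted p) and Lpin2 lower (1 of 10, against 7.28%).

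**Figure D3:**
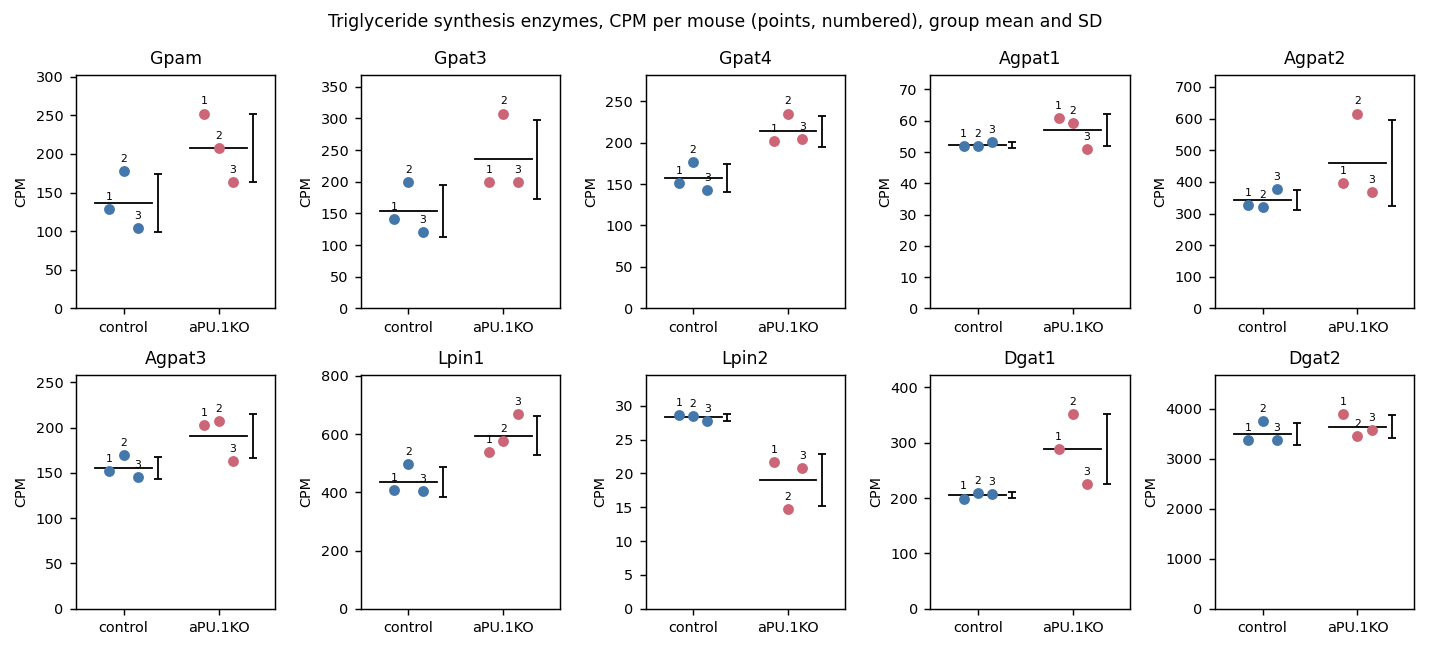
CPM (vertical axes, each from 0) of the 10 enzymes in each mouse (points numbered within a group), with group means (lines) and SD (bars). All aPU.1KO mice lie above all controls for Gpat3, Gpat4, Lpin1 and Dgat1 and below them for Lpin2, and the groups overlap for the other 5 enzymes.

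The GPAT enzymes catalyse the committed first acylation. Gpam (ENSMUSG00000024978, chr19:55067268-55127238), whose enzyme sits in the outer mitochondrial membrane, measured 128, 178 and 104 CPM in control mice 1, 2 and 3 and 252, 208 and 164 CPM in aPU.1KO mice 1, 2 and 3. Only the lowest aPU.1KO mouse lay within the control range. The group means were 137 ± 37.4 and 208 ± 44.0 CPM, a 1.52-fold difference with a 95% confidence interval of 1.04 to 2.22 (adjusted p = 0.164). Gpat3 (ENSMUSG00000029314, chr5:100845713-100899102), a GPAT of the endoplasmic reticulum abundant in fat, measured 141, 199 and 120.2 CPM in controls and 199.8, 308 and 199 CPM in aPU.1KO mice. Its groups were separated by less than 1 CPM, with control mouse 2 next to aPU.1KO mice 1 and 3, and the fold was 1.54 (1.03 to 2.30, adjusted p = 0.171). Its log2 fold change was 0.62 with all mice and 0.38 without aPU.1KO mouse 2. Exons of Gpat3 share 1052 bases with the antisense gene 4930458D05Rik and 259 bases with Gm42987 on the same strand, neither of which is listed in the table, so reads of these genes could not be separated.

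Gpat4 (ENSMUSG00000031545, chr8:23171265-23208346), the other GPAT of the endoplasmic reticulum, had the lowest p of the 10 enzymes. It measured 152, 176 and 143 CPM in controls and 201, 235 and 204 CPM in aPU.1KO mice, so the groups were well apart. The log2 fold change was 0.44 ± 0.11 (SE), 1.36-fold with an interval of 1.13 to 1.63 (adjusted p = 0.0862). DESeq2 called it with an adjusted p of 0.0143, and edgeR called it without control mouse 2, at a log2 fold change of 0.52 and an adjusted p of 0.0350. That fit called 8.34% of all genes in either direction (1193 genes) and 1.41% of them higher. Without each of the other mice its adjusted p lay between 0.101 and 0.353. Its log2 fold change was 0.12 when scaled to adipocyte markers (adjusted p = 0.491) and 0.08 with the macrophage covariate (adjusted p = 0.999948). Control mouse 2, which had the fewest macrophage marker counts of the controls, also had the highest control value of all 3 GPAT genes. It had the lowest control value of Agpat1 and Agpat2. Any relation of the enzymes to the macrophage markers across mice was not tested. The 3 GPAT genes differed in which aPU.1KO mouse was highest, mouse 1 for Gpam and mouse 2 for Gpat3 and Gpat4.

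The AGPAT enzymes add the next acyl chain. Agpat2 (ENSMUSG00000026922, chr2:26593057-26604417), the AGPAT needed for fat storage in mice and people, measured 328, 319.8 and 377 CPM in controls and 397, 616 and 367 CPM in aPU.1KO mice. The difference was carried by aPU.1KO mouse 2, and the lowest aPU.1KO mouse lay below the highest control. The fold was 1.35 (0.962 to 1.89, adjusted p = 0.239), and the log2 fold change of 0.43 became 0.16 without aPU.1KO mouse 2. Exons of Agpat2 overlap those of the endothelial gene Egfl7 by 64 bases on the opposite strand, and Egfl7 had at most 12.1% as many counts as Agpat2 in any library.

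Agpat3 (ENSMUSG00000001211, chr10:78269178-78352489) measured 152, 169 and 146 CPM in controls and 202, 207 and 163 CPM in aPU.1KO mice. The lowest aPU.1KO mouse was below the highest control, and the fold was 1.23 (1.01 to 1.49, adjusted p = 0.175). Agpat1 (ENSMUSG00000034254, chr17:34604262-34613449), a widely expressed AGPAT, measured 51.8, 51.8 and 53.2 CPM in controls and 60.8, 59.3 and 51.1 CPM in aPU.1KO mice. The groups overlapped, since aPU.1KO mouse 3 lay below every control, and the fold of 1.09 had an interval from 0.949 to 1.26 (adjusted p = 0.389). Its log2 fold change of 0.13 was 0.07 without aPU.1KO mouse 1 and 0.20 without aPU.1KO mouse 3. Relative to adipocyte markers, the log2 fold changes of Agpat3 and Agpat1 had the other sign, -0.04 and -0.20. Exons of Agpat1 share 101 bases with Egfl8 on the opposite strand, which had at most 1.52% as many counts, and those of Agpat3 share 16 bases with Gm40709.

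The lipins, which dephosphorylate phosphatidate, were on opposite sides of 0. Lpin1 (ENSMUSG00000020593, chr12:16535669-16610966), the lipin of fat and muscle, whose promoter window was shown with its AGGTCA, measured 409, 496 and 404 CPM in controls and 537, 577 and 669 CPM in aPU.1KO mice. Every aPU.1KO mouse was above every control. The log2 fold change was 0.45 ± 0.13 (SE), 1.36-fold with an interval of 1.10 to 1.68 (adjusted p = 0.105), and DESeq2 called it with an adjusted p of 0.0332. The log2 fold change was 0.13 when scaled to adipocyte markers (adjusted p = 0.566) and 0.16 with the macrophage covariate (adjusted p = 0.999948). Lpin2 (ENSMUSG00000024052, chr17:71182560-71249817), a lipin prominent in liver and also made in macrophages, measured 28.7, 28.5 and 27.7 CPM in controls and 21.7, 14.7 and 20.7 CPM in aPU.1KO mice. The controls were within about 1 CPM of each other, and all aPU.1KO mice lay below them. The macrophage marker sums of the controls ran from 493 to 1507 CPM, and aPU.1KO mouse 2, which had the lowest of these sums (259 CPM), also had the lowest Lpin2.

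With TMM scaling, Lpin2 was the only enzyme of the 10 with a negative log2 fold change. Its log2 fold change was -0.57 ± 0.15 (SE), 0.672-fold with an interval of 0.524 to 0.862 (adjusted p = 0.0925). DESeq2 called it (adjusted p = 0.0184), as did edgeR with libraries scaled to adipocyte markers (log2 fold change -0.89, adjusted p = 0.0323), a fit in which 14.5% of all tested genes were called lower. Per length, Lpin2 made up 4.91% ± 0.497 of the sum of Lpin1 and Lpin2 in controls and 2.48% ± 0.564 in aPU.1KO mice, and these shares did not overlap. With Lpin3 included the shares of Lpin2 were 4.66% ± 0.444 and 2.41% ± 0.552, again without overlap. The part of macrophage RNA in the Lpin2 value was not tested.

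The DGAT enzymes complete triglyceride. Dgat1 (ENSMUSG00000022555, chr15:76502015-76511953), a DGAT of the endoplasmic reticulum, measured 199, 208 and 208 CPM in controls and 289, 352 and 226 CPM in aPU.1KO mice. The controls lay close together and below all aPU.1KO mice, whose spread was wide. The log2 fold change was 0.49 ± 0.16 (SE), 1.41-fold with an interval of 1.09 to 1.83 (adjusted p = 0.120), and without aPU.1KO mouse 2 it was 0.32. Dgat2 (ENSMUSG00000030747, chr7:99153658-99182719), the most abundant of the 10 transcripts, measured 3366, 3753 and 3368 CPM in controls and 3899, 3455 and 3569 CPM in aPU.1KO mice. The highest control exceeded all but the highest aPU.1KO mouse. The fold of 1.04 had an interval of 0.843 to 1.29 (adjusted p = 0.802), and its log2 value of 0.06 turned to -0.003 without aPU.1KO mouse 1 and to -0.26 relative to adipocyte markers.

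Per length, Dgat1 made up 5.60% ± 0.282 of the sum of Dgat1 and Dgat2 in controls and 7.43% ± 1.71 in aPU.1KO mice (SD, n = 3), without overlap. By CPM, summed values of the 10 enzymes were 4955, 5581 and 4952 in controls and 6059.8, 6032 and 5634 in aPU.1KO mice, with Dgat2 supplying most of them and no overlap between the groups. On the TPM scale the direction of the means was the other, at 5067 ± 215 in controls and 4839 ± 447 in aPU.1KO mice (SD, n = 3). There the groups overlapped, and aPU.1KO mouse 2 lay below every control at 4323 TPM. Dgat2 averaged 3744 TPM in controls and 3325 ± 531 TPM in aPU.1KO mice. Both scales use the same counts, so these sums are not separate measurements. TPM weights by length and carries no TMM factors, which ran from 0.911 in aPU.1KO mouse 2 to 1.08 in control mouse 3. The part of each in the changed direction was not tested. Without Dgat2, the other 9 enzymes summed to between 1272 and 1364 TPM in controls and between 1465 and 1611 TPM in aPU.1KO mice.

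Because the aPU.1KO libraries held more adipocyte marker counts, the fit was repeated with libraries scaled to those markers. It used their summed counts, to which abundant genes contribute most. Mean Fabp4 was 10098 CPM in controls and 13672 in aPU.1KO mice, and mean Cfd 993 and 3244 CPM. Plin4 had a log2 fold change of 0.08 and Lep one of -0.77. The scaling moved the median log2 fold change of all genes by -0.32. Of the 10 enzymes, 6 were then above 0, with Agpat1, Agpat3 and Dgat2 now below it. Relative to the median gene, no enzyme moved by more than 0.02 between these scalings. The log2 fold changes were then 0.27 for Gpam, 0.28 for Gpat3, 0.16 for Dgat1 and 0.09 for Agpat2, none with an adjusted p under 0.05. Over all genes, 8 were called higher and 25 lower with TMM factors, and 26 higher and 2025 lower with adipocyte scaling, so higher calls made up 24.2% and 1.27% of the calls. With the mean log2 CPM of the macrophage markers as a covariate, 6 of the 10 were above 0, and Gpam (-0.05), Gpat3 (-0.29), Dgat2 (-0.08) and Lpin2 (-0.40 ± 0.32, SE) were below it, each with an adjusted p of 0.999948. That score was 6.22, 4.88 and 5.94 in controls and 4.16, 3.78 and 4.23 in aPU.1KO mice, with no overlap, so score and genotype cannot be told apart in this fit.

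**Figure D4:**
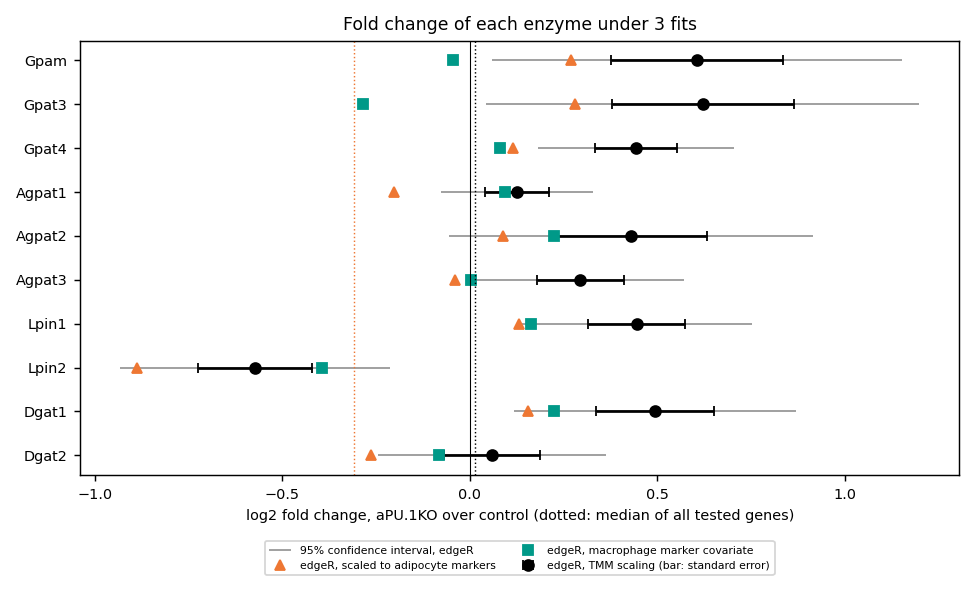
Log2 fold change of aPU.1KO over control (horizontal axis) for each enzyme with TMM scaling (circles, SE and 95% confidence interval), scaled to adipocyte markers (triangles) and with the macrophage covariate (squares), with the median of all genes dotted. With TMM scaling 9 of the 10 circles lie above 0 and Lpin2 at -0.57 below, and 6 of the 10 triangles lie above 0.

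The count of enzymes with an unadjusted p under 0.05, 7 of the 10 over both directions, ranged, when mice were left out in turn, from 3 without control mouse 1 to 9 without aPU.1KO mouse 3. The matching shares of all genes were 25.7% with all mice, and 12.3% and 27.4% without those mice. With libraries scaled to adipocyte markers only Lpin2 (1 of the 10, against 39.0% of all genes) had such a p, and with the macrophage covariate 0 of the 10 did (against 2.05%), so the 6 higher enzymes did not pass the unadjusted threshold in either fit. Some mice held the same rank in several enzymes. Control mouse 2 was the highest control in 7 of the 10 and control mouse 3 the lowest in 6. In the aPU.1KO group, mouse 2 was the highest in 5, mouse 1 the highest in 4 and mouse 3 the lowest in 6. Mitochondrially encoded genes took 9.38% of the counts of aPU.1KO mouse 2 and between 4.34% and 6.23% of the other libraries, and their part in these values was not tested.

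Ratios of enzymes of the same step within a library do not depend on scaling, and 4 pairs were compared. Counts of Lpin1 were 14.3, 17.4 and 14.6 times those of Lpin2 in controls and 24.8, 39.3 and 32.3 times in aPU.1KO mice. The groups were apart, with a log2 difference of 1.04, or 2.05-fold (exact two-sided permutation test, p = 0.1, the smallest that 3 against 3 mice allow, adjusted over the 4 pairs 0.2). The difference lay between 0.88 and 1.21 when each mouse was left out in turn.

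Counts of Dgat2 were 16.9, 18.0 and 16.2 times those of Dgat1 in controls and 13.5, 9.81 and 15.8 times in aPU.1KO mice. The groups did not overlap but came close, and aPU.1KO mouse 2 was the lowest. The log2 difference was -0.41 (exact two-sided permutation p = 0.1, adjusted 0.2), and -0.22 without aPU.1KO mouse 2. The ratio of Agpat2 to Agpat1 was 6.33, 6.18 and 7.09 in controls and 6.54, 10.4 and 7.20 in aPU.1KO mice, with overlap and a log2 difference of 0.27 (exact permutation p = 0.2, adjusted 0.267) that was 0.07 without aPU.1KO mouse 2. For Gpam to Gpat3 it was 0.913, 0.893 and 0.868 in controls and 1.26, 0.676 and 0.823 in aPU.1KO mice. The controls were close to each other and the aPU.1KO mice spread to both sides of them, with a log2 difference of -0.004 (exact permutation p = 1).

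**Figure D5:**
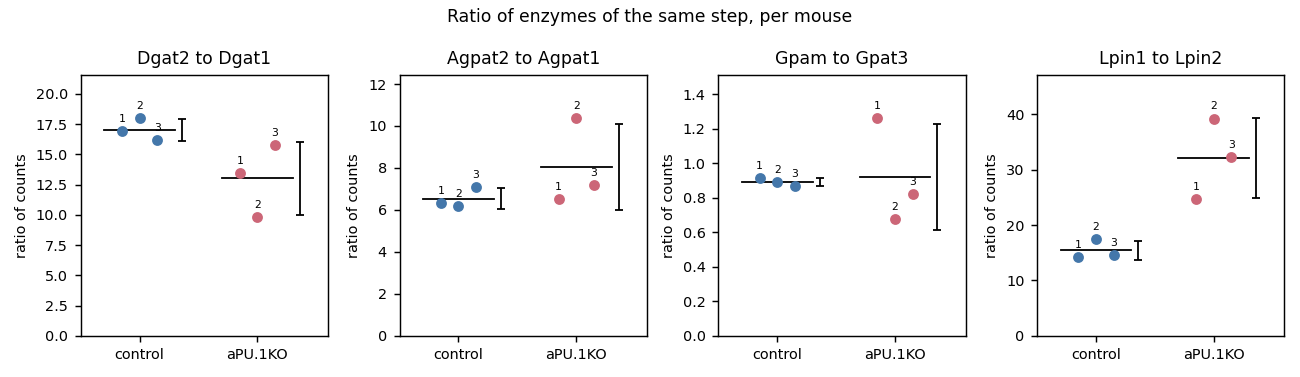
Ratio of the counts of enzymes of the same step (vertical axes, each from 0) in each mouse (numbered points), with group means and SD. The aPU.1KO mice lie above all controls for Lpin1 to Lpin2 and below them for Dgat2 to Dgat1, and the groups overlap for the other pairs.

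The pathway was followed further through 37 genes in 4 lists, of which 34 could be tested and none passed the adjusted threshold in edgeR (0 of 34). At an unadjusted p under 0.05 there were 11 of the 34, against 25.7% of all tested genes. Of those 11, 6 were higher and 5 lower in aPU.1KO, against 11.9% and 13.7% of all tested genes. The same shares apply to the counts of each list below. The median log2 fold change of the 34 was -0.01. DESeq2, which gave all 37 an adjusted p, called 6 of them, against 10.7% of the 16934 genes with an adjusted p. Gpat2, Dgkb and Dgkg did not pass the filter on low counts in edgeR. The 3 genes of lowest p in each list are given. Choice by p favours groups without overlap. Over all tested genes, 16.7% were higher and 15.5% lower without overlap.

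Among the regulators of the pathway (6 of 6 tested, with 2 higher and 0 lower before adjustment, median 0.16), Ldaf1 had the lowest p. Ldaf1, listed as Tmem159 in the annotation, encodes a partner of seipin at sites where lipid droplets form. It measured 22.4, 26.0 and 20.3 CPM in controls and 37.6, 46.2 and 34.6 CPM in aPU.1KO mice. The groups did not overlap, and the log2 fold change was 0.79 ± 0.14 (SE), with an adjusted p of 0.0724 in edgeR and 0.00027 in DESeq2. Fitm2, which helps triglyceride enter droplets, had a log2 fold change of 0.27 without overlap (adjusted p = 0.130), and its relative Fitm1 was below 1 CPM in every library (log2 fold change -0.79, adjusted p = 0.284).

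Among the other triglyceride synthesis enzymes (10 of 11 tested, 1 higher and 3 lower), Mogat1, which acylates monoacylglycerol in a route that bypasses phosphatidate, measured 14.8, 21.4 and 14.1 CPM in controls and 32.8, 47.4 and 18.2 CPM in aPU.1KO mice. The lowest aPU.1KO mouse lay below the highest control, and the log2 fold change was 0.97 ± 0.35 (SE, adjusted p = 0.143). The lipid phosphate phosphatases Plpp3 (log2 fold change -0.31, adjusted p = 0.105) and Plpp1 (-0.43, adjusted p = 0.118) were lower in aPU.1KO mice without overlap.

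In the phospholipid branches (11 of 11 tested, 2 higher and 0 lower), Chpt1, which turns diacylglycerol into phosphatidylcholine, averaged 1649 ± 221 CPM in controls and 2345 ± 311 CPM in aPU.1KO mice without overlap (log2 fold change 0.51, adjusted p = 0.114). Cept1, which makes phosphatidylcholine and phosphatidylethanolamine, had a log2 fold change of 0.50 with overlapping groups (adjusted p = 0.170). Cds1, which draws phosphatidate toward phosphatidylinositol, had one of -0.21 (adjusted p = 0.259). Of the diacylglycerol kinases, which return diacylglycerol to phosphatidate (7 of 9 tested, 1 higher and 2 lower), Dgkh (-0.54, adjusted p = 0.102) and Dgkz (-0.78, adjusted p = 0.104) were lower and Dgkd (0.26, adjusted p = 0.184) was higher in aPU.1KO mice, each without overlap.

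Other cell types were read from their markers in the same libraries. Over all tested genes, 13.7% were lower at the unadjusted threshold, and 0.237% passed the adjusted threshold in either direction. Adipose progenitor markers, led by the collagen gene Col3a1, summed to between 1286 and 1745 CPM in controls and between 715 and 1024 CPM in aPU.1KO mice, with 5 of 8 lower at the unadjusted threshold. Endothelial markers, led by Cdh5, which encodes VE-cadherin, summed to between 513 and 741 CPM in controls and between 307 and 661 CPM in aPU.1KO mice, with 2 of 8 lower. Hepatocyte genes, led by Alb, summed to between 38.3 and 59.3 CPM in controls and between 17.8 and 23.7 CPM in aPU.1KO mice, and 3 of 6 were lower with an adjusted p under 0.05. Mesothelial markers led by Upk3b (4.64 to 16.8 against 6.58 to 8.54 CPM) and erythroid markers led by Hbb-bs (587 to 786 against 352 to 1145 CPM) overlapped. Lymphocyte markers led by Cd79a summed to 2.67 to 4.68 CPM in controls and 1.12 to 3.08 CPM in aPU.1KO mice, with 2 of 6 high enough to test. The part of these cells in the values of the enzymes was not tested.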

How the data were processed

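The 6 libraries hold RNA of the adipocyte fraction, 1 library for each of 3 control and 3 aPU.1KO mice. The authors deposited estimated counts per gene, made with Salmon (option validateMappings) by summing transcript counts. The submitters' notes name FastQC, Salmon and GRCm38, and the versions, annotation and strandedness are not given in the sources used here. The deposited counts were whole numbers and entered the tests as they were. Of 35122 identifiers, 35031 matched a symbol in GENCODE M21 (GRCm38), and the others held 0.0367% of counts. A further 2 columns were empty and were not used.

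The test was the quasi-likelihood test of edgeR 4.0.16 (R 4.3.3) with glmQLFit and glmQLFTest, after filterByExpr and TMM scaling, with Benjamini-Hochberg adjustment over 13925 genes and a threshold of 0.05. edgeR estimated a common biological coefficient of variation of 0.194. Standard errors and intervals were derived from the coefficient and the F statistic. Ratios were tested by exact permutation in SciPy 1.17.1 under Python 3.11.15, and figures used matplotlib 3.10.9. The script was tested on simulated data. No pair of libraries of the same group was a duplicate, since their counts gave at least 20.4 for the chi-square statistic divided by its degrees of freedom. Total counts, 20550252 to 69283842 per library, left every enzyme at 325 counts or more.

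Alternatives were RLE and upper quartile factors, scaling to adipocyte markers, a filter of 10 counts per library, a filter of only 1 count in total, DESeq2 1.42.0, limma-voom (limma 3.58.1), robust edgeR, legacy = FALSE, a macrophage covariate, control library 1 thinned to 22771022 counts, and each mouse left out. The enzymes and lists were chosen with earlier results of these data known. Named were all 10 enzymes, the 3 genes of lowest p in each other pathway list, the highest marker of each cell type list, and the 5 genes whose profile over libraries (log2 CPM, prior count 2) was most like the mean of the enzymes. The promoter windows shown were chosen after the values were seen.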

Additional observations from a re-analysis of the deposited data

How the results depend on the processing

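Over 17 alternatives, 158 of 170 values of single enzymes kept their direction and their side of the adjusted threshold, 5 passed it and 7 reversed. Scaling to adipocyte markers gave 2051 calls over all genes (33 with TMM), 1 among the 10 enzymes (0 with TMM) and 5 of 34 among the other pathway genes (0 with TMM), against 14.7% of all genes called in that fit, and reversed Agpat1 (-0.20), Agpat3 (-0.0391) and Dgat2 (-0.26). DESeq2 gave 1805, 3 and 6 calls. A filter of 10 counts in every library gave 5 calls over all genes and no filter gave 146. The macrophage covariate gave 0 calls in edgeR, with 285 genes at an unadjusted p under 0.05, and reversed Gpam (-0.0454), Gpat3 (-0.29) and Dgat2 (-0.0832). Leaving out each mouse gave between 0 calls (without control mouse 1, where 1718 genes had an unadjusted p under 0.05) and 1193 calls (without control mouse 2) over all genes, 0 to 1 among the enzymes and 0 to 4 among the other pathway genes. Without each mouse in turn, Dgat2 ranged from -0.00304 to 0.10. The log2 difference in the ratio of Gpam to Gpat3 was -0.0043 with all mice and had no stable sign, at 0.00473 with control library 1 thinned and between -0.26 (without aPU.1KO mouse 1) and 0.19 (without aPU.1KO mouse 2) when mice were left out. The cause of these changes was not tested, except that fewer mice or another number of genes enter some fits. Over all genes, the calls were 8 higher and 25 lower with TMM, 26 and 2025 with adipocyte scaling, 572 and 1233 with DESeq2, 2 and 3 with 10 counts in every library, 21 and 125 with no filter, and 202 and 991 without control mouse 2. Leaving out each of the other mice gave at most 5 higher and 3 lower calls. No paired analysis was possible because the labels number the mice individually, the groups share no number, and the litter of each mouse is not given in the sources used here, although the study used littermate controls. With 3 mice a group, the precision of each enzyme is that of its printed interval.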

Other observations

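Outside the pathway, the genes whose profile over the 6 libraries was most like the mean profile of the 10 enzymes, by root mean square difference in centred log2 CPM, were Kdsr (0.0214), Hspa9 (0.0221), Porcn (0.0221), Gcdh (0.0287) and Cc2d2a (0.029). Kdsr encodes a reductase of sphingolipid synthesis, Hspa9 a mitochondrial chaperone, Porcn the acyltransferase that modifies Wnt proteins and Gcdh a mitochondrial dehydrogenase of lysine breakdown. Their log2 fold changes lay between 0.28 and 0.32, which follows from their choice by profile. None passed the adjusted threshold in edgeR (adjusted p from 0.108 to 0.242). Among the 10 enzymes, Agpat3 was nearest to the mean profile (0.0477) and Lpin2 farthest from it (0.500).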
